A study of Mus musculus with 6 samples.

Results

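Extracellular adenosine is made and read by a small set of genes, and 6 of them are described here in mouse blood neutrophils with and without phd3: the adenosine receptor genes Adora2a, Adora2b and Adora3, the ectonucleotidase genes Entpd1 and Nt5e, and the adenosine deaminase gene Ada. They were chosen by gene symbol, taking every probe set that the platform annotation gives to 1 of these symbols. That found 9 of 45101 probe sets, standing for 4 of the 6 genes: 3 probe sets of Entpd1, 3 of Nt5e, 2 of Adora3 and 1 of Ada. The annotation used here names no probe set for 2 members, Adora2a and Adora2b, nor for the remaining receptor gene Adora1, so these receptors are not analysed here. There were 3 arrays of neutrophils from phd3 null mice and 3 from wild-type mice, both on a C57 background, with 1 mouse per array. All cells were selected from peripheral blood by negative magnetic selection and held for 4 h at 3% oxygen, and no culture at normal oxygen is part of this comparison. The labels do not give the deleted part of the gene, nor whether cells other than neutrophils carried the deletion.

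Cells under stress release ATP, which signals through P2 receptors. CD39, encoded by Entpd1, removes phosphates from ATP and ADP at the cell surface and leaves AMP, and CD73, encoded by Nt5e, turns AMP into adenosine. Adenosine then acts on G protein-coupled receptors: those encoded by Adora2a and Adora2b raise cyclic AMP and restrain the oxidative burst and adhesion of neutrophils, whereas those encoded by Adora1 and Adora3 lower it. Adenosine deaminase ends the signal by turning adenosine into inosine. Hypoxia is known to raise CD73 and the Adora2b receptor in epithelial and endothelial cells through hypoxia-inducible factor (HIF), the factor that PHD enzymes mark for destruction, which is the background for looking at these genes in phd3 null cells.

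The targeted gene, now named Egln3, was low wherever the labels say phd3 null: its brighter probe set gave signals of 87.2, 29.6 and 73.5 in phd3 null samples 1 to 3, against 2088, 1733.9 and 327 in wild-type samples 1 to 3. The 2 arrays of replicate 3 stood apart, with a median correlation to the rest of 0.739 for the phd3 null array and 0.788 for the wild-type array, where the remaining 4 had 0.838 to 0.866. Of 10 hypoxia-induced genes, 8 had their lowest signal of each genotype in replicate 3, where 20.7% of all tested genes did. The neutrophil markers S100a8 and S100a9 were strong, with S100a8 at 11103 to 20429 in the phd3 null arrays and 17949 to 25480 in the wild-type arrays. Other neutrophil markers were lower, down to Camp at 79.2 to 169.6 in phd3 null and 165.1 to 203.9 in wild type. Cxcr2 was at 25.6 in phd3 null sample 3, under the median of 64.2 of that array. The monocyte receptor gene Csf1r was also at 3538 to 10858 in phd3 null and 4049 to 11088 in wild-type samples. The brightest of 3 probe sets of the X-inactivation RNA Xist ran from 72.9 to 203.4 in the phd3 null arrays and from 292 to 1180.4 in the wild-type arrays. The genotypes overlapped in the other 2, at 3.7 to 79.1 and 13.6 to 59 in phd3 null against 41.7 to 695.3 and 32.5 to 59.9 in wild type. The high Xist signals were those of wild-type samples 2 and 3. The brightest probe set gave 1180.4 and 1061 there against 292 in wild-type sample 1, and the next gave 695.3 and 476.7 against 41.7. The dimmest did not share this split, at 59.9 and 32.5 against 37.2. The labels do not give the sex of the mice.

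Because the question is one of oxygen sensing, the DNA just upstream of the 2 members with probe sets above the array median on every array is shown, with the core that HIF can bind in capitals. Each sequence holds the 250 bases before an annotated RefSeq start on mouse assembly GRCm38.p6, read 5′ to 3′ on the plus strand of the genome, which is the coding strand of both genes. For Nt5e the stretch is chr9:88327359-88327608, and for Entpd1, which has 2 annotated starts, the stretches are chr19:40612116-40612365 and chr19:40659520-40659769.
Nt5e: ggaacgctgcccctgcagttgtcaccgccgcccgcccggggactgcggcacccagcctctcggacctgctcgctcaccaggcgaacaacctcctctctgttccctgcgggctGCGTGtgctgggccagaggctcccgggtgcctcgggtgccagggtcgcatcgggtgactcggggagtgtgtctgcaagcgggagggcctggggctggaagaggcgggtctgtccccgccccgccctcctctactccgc
Entpd1, upstream start: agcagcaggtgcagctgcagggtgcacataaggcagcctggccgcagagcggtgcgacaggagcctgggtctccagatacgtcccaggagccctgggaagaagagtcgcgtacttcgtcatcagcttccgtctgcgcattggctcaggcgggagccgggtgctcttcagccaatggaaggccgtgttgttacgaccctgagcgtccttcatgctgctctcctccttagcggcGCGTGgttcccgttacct
Entpd1, downstream start: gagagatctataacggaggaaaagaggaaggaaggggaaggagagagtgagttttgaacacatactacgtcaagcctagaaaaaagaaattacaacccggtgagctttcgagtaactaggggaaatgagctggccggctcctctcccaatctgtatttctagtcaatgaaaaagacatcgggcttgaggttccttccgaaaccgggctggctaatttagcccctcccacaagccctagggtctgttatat

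The letters ACGTG and GCGTG were searched on both strands. Nt5e had 1 match, GCGTG from base -138 to -134 before its start, and the upstream start of Entpd1 had 1, GCGTG from -18 to -14. The downstream start of Entpd1 had 0 matches, and so had the windows of Adora3 and Ada, which are not shown. Such letters are common: 28.2% of 32851 annotated mouse promoter windows of this length hold GCGTG and 38.6% hold either form, so a match here is a description of these windows and not a binding site.

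Entpd1 was the member with signals above the array median on every array in all 3 of its probe sets. Its brightest probe set (1423326_at) gave 836.1, 861.4 and 596.1 in phd3 null samples 1 to 3, against 1342.5, 628.8 and 912.8 in wild-type samples 1 to 3. The wild-type spread enclosed all but the lowest phd3 null value, and the groups overlapped. The means were 765 ± 146 in the phd3 null arrays and 961 ± 359 in the wild-type arrays (SD, n = 3 each), a log2 fold change of -0.28 (SE 0.36) that missed the threshold in limma (adjusted p = 0.9996 over all genes). Its 95% interval ran from -1.09 to 0.54, which is a phd3 null level from 0.470 to 1.45 times that of wild type on the signal + 16 scale. In bulk RNA, fewer cells of a type and less RNA per cell cannot be told apart.

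The other Entpd1 probe sets ranked the wild-type arrays in the same order, but not the phd3 null arrays. The second (1450939_at) gave 395.1, 251.3 and 229.5 in phd3 null, against 574, 233.5 and 355 in the wild-type arrays. The third (1453586_at) gave 217.5, 218.4 and 234.6 in phd3 null, against 309.2, 178.4 and 251.2 in the wild-type arrays. In each of the 3 probe sets wild-type sample 1 was the highest array and wild-type sample 2 the lowest of the wild-type arrays. Within pairs of same-numbered samples the brightest probe set differed by -0.67, 0.44 and -0.60, the second by -0.52, 0.10 and -0.60, and the third by -0.48, 0.27 and -0.09 on the log2(signal + 16) scale, phd3 null minus wild type. Pair 2 thus went the opposite way from pairs 1 and 3 in every probe set of the gene, and these probe sets read the same gene in the same RNA, so they are not independent.

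**Figure D1:**
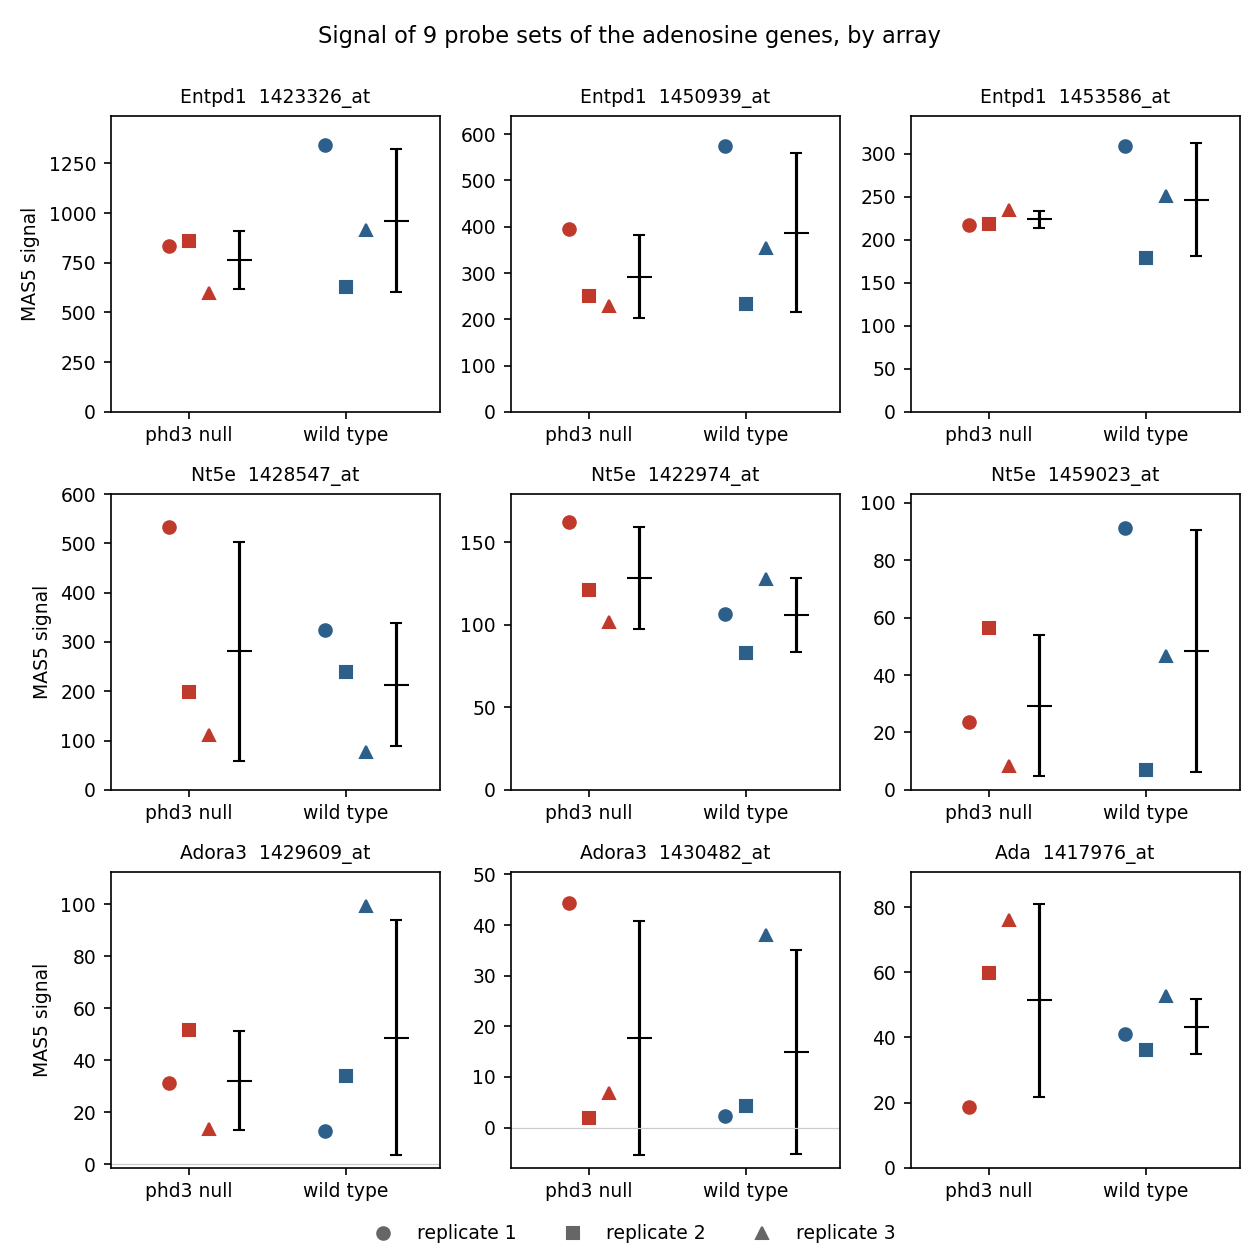
MAS5 signal (vertical axis, linear) of the 9 probe sets of Entpd1, Nt5e, Adora3 and Ada in 3 phd3 null (red) and 3 wild-type arrays (blue). Marker shape gives the replicate number, and the bar beside each group is its mean with the SD. The groups overlap in all 9 panels, and Nt5e 1428547_at is lowest in replicate 3 of both genotypes.

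In Nt5e the spread between replicates was larger than the difference between genotypes. Its brightest probe set (1428547_at) gave 532.5, 199.4 and 112.1 in phd3 null samples 1 to 3, against 323.7, 239.5 and 77.5 in wild-type samples 1 to 3. In each genotype sample 1 was the highest and sample 3 the lowest, and the groups overlapped. The means were 281 ± 222 in the phd3 null arrays and 214 ± 125 in the wild-type arrays (SD, n = 3 each). The log2 fold change was 0.30 (SE 0.61, 95% interval -1.07 to 1.67), which missed the threshold in limma (adjusted p = 0.9996 over all genes). With the replicate number as a block the SE was 0.29 and the gene still did not pass (adjusted p = 0.934). The sign rested on single arrays, at -0.27 once phd3 null sample 1 was left out and -0.25 once wild-type sample 3 was.

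The low signal in replicate 3 was measured in both genotypes. Against the mean of samples 1 and 2, sample 3 differed by -1.42 in the phd3 null arrays and by -1.66 in wild type on the log2(signal + 16) scale. The HIF target Bnip3, a mitophagy gene, differed by -4.40 in phd3 null and -3.92 in wild type on the same measure. Ldha, the lactate dehydrogenase A gene, differed by -2.07 in phd3 null and -2.28 in wild type, and Slc2a1, the gene of a glucose transporter, by -1.96 in phd3 null and -2.07 in wild type. Pdk1 differed by -2.93 in phd3 null and -2.68 in wild type, and Hk2 by -3.05 in phd3 null and -1.83 in wild type. Pfkfb3 differed by -2.61 in phd3 null and -1.56 in wild type, and Pgk1 by -2.43 in phd3 null and -2.00 in wild type. The remaining hypoxia-induced genes of the list differed less. Vegfa, the vascular growth factor gene, differed by -1.38 in phd3 null and 0.09 in wild type. Ndrg1 differed by -1.73 in phd3 null and -0.38 in wild type, and Ankrd37 by -0.48 in phd3 null and -0.63 in wild type. Other quantities moved with these arrays as well. The summed signal of 6 monocyte markers was 4955.3 in phd3 null sample 3 against 12599.1 and 14757.6 in samples 1 and 2 of that genotype, and 6029.5 in wild-type sample 3 against 14564.5 and 14937.9. Most of this sum was Csf1r, at 3537.6 in phd3 null sample 3 and 4048.6 in wild-type sample 3. Ccr2 and Cx3cr1 were not lowest in wild-type sample 3, at 385.4 and 361.1 against 284.2 and 297.8 in wild-type sample 1. The summed signal of 10 neutrophil markers was also lowest there. It was 25868.6 in phd3 null sample 3 against 40990.1 and 51201.6 in samples 1 and 2, and 43075.4 in wild-type sample 3 against 57063.5 and 47362.6. Of these markers S100a9 and Mmp9 were not lowest in wild-type sample 3, nor was Ltf in phd3 null sample 3. The part of each in the Nt5e values was not tested.

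The remaining Nt5e probe sets were not lowest in replicate 3 of both genotypes. The second (1422974_at) gave 162.1, 121.1 and 101.4 in phd3 null, against 106.8, 82.8 and 127.6 in the wild-type arrays. Here wild-type sample 3 was the highest of its group, and the log2 fold change was 0.24 (SE 0.40). The third (1459023_at) was dim, at 23.5, 56.3 and 8.3 in phd3 null against 91.2, 6.9 and 46.7 in the wild-type arrays, and gave -0.38 (SE 0.74). The probe sets of Nt5e therefore disagreed in direction, and a mean over them gave a log2 fold change of 0.05.

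**Figure D2:**
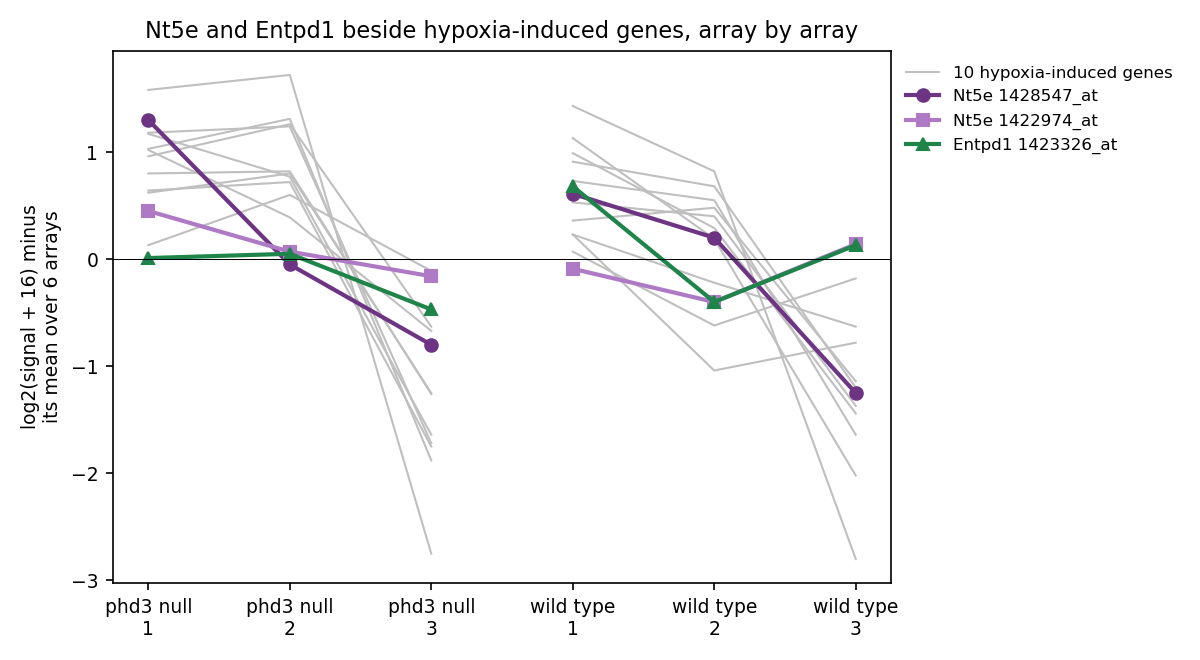
Each line is log2(signal + 16) minus its own mean over the 6 arrays (vertical axis), for 2 Nt5e probe sets, the brightest Entpd1 probe set and 10 hypoxia-induced genes (grey), with the 3 phd3 null arrays left and the 3 wild-type arrays right. Lines join arrays for tracing only, as replicates have no order. Nt5e 1428547_at lies at -0.80 in phd3 null 3 and -1.25 in wild type 3, below its other arrays. Nt5e 1422974_at and Entpd1 lie at 0.14 and 0.13 in wild type 3, but at -0.16 and -0.47 in phd3 null 3, each its lowest of that genotype.

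Adora3, the gene of the A3 receptor, was dim in both probe sets. Probe set 1429609_at gave 31.1, 51.6 and 13.5 in phd3 null samples 1 to 3, against 12.7, 33.8 and 99.4 in wild-type samples 1 to 3, and was above the array median on 1 of 6 arrays, wild-type sample 3. Probe set 1430482_at gave 44.3, 1.9 and 6.9 in phd3 null, against 2.3, 4.2 and 38.1 in the wild-type arrays, and was above the array median on 0 of 6. With a mean log2(signal + 16) of 5.64 the brighter probe set stayed under the minimum of 5.90 for a gene to be tested. In the fit over every probe set it had a log2 fold change of -0.27 (SE 0.71) and the dimmer one 0.10 (SE 0.56), neither passing in limma (adjusted p = 0.9997 for each). Without the arrays of pair 3 the brighter probe set gave 0.58 (SE 0.87).

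The A3 receptor is also known from mast cells and eosinophils, whose markers were examined beside it. Of the 6 mast cell and basophil genes, Cpa3, a mast cell protease gene, was at 7.2, 10.3 and 18.3 in the phd3 null arrays and at 7.2, 5.5 and 274.9 in the wild-type arrays. Ms4a2, a subunit gene of the IgE receptor, was instead at 54.2, 47.3 and 115.1 in phd3 null against 27.8, 13 and 38.1 in wild type. Mcpt8, a basophil protease gene, was at 35.2, 8.7 and 42.2 in phd3 null against 3.3, 14.2 and 3.7 in wild type. The log2 differences of this list were above 0 for Ms4a2, Mcpt8 and Fcer1a and below 0 for Cpa3, Gata2 and Hdc. Of the 5 eosinophil genes, Ccr3, the eotaxin receptor gene, was at 4.7, 9.8 and 11 in phd3 null against 38, 119.7 and 50.3 in wild type. Epx, the eosinophil peroxidase gene, was at 4.5, 29.7 and 98.1 in phd3 null against 2.5, 3.9 and 36.7 in wild type. In that list the log2 difference was above 0 for Epx and Siglecf and below 0 for Ccr3, Prg2 and Il5ra. The 5 eosinophil markers summed to 112.6 to 244.9 in the phd3 null arrays and 137.1 to 367.9 in the wild-type arrays. The 6 mast cell and basophil markers summed to 1162.8 to 1444.9 in the phd3 null arrays and 1097.9 to 2609 in the wild-type arrays, mostly from Hdc, the histidine decarboxylase gene, at 757.9 to 1230.8 in phd3 null and 832 to 2414.3 in wild-type samples. None of these markers was listed at 0 on any array, which without detection calls does not show that such cells were present. The part of these markers in the Adora3 values was not tested.

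Ada had 1 probe set (1417976_at), at 18.6, 59.7 and 76 in phd3 null samples 1 to 3, against 41.1, 36.3 and 52.7 in wild-type samples 1 to 3. The phd3 null values enclosed all wild-type values. The means were 51.4 ± 29.6 in the phd3 null arrays and 43.4 ± 8.43 in the wild-type arrays (SD, n = 3 each). The gene passed the minimum narrowly, at 5.92 against 5.90, and its log2 fold change was 0.08 (SE 0.58, 95% interval -1.23 to 1.38), not passing in limma (adjusted p = 0.9996 over all genes). T cells are rich in this enzyme, and the 8 T cell markers summed to 314.7 to 761.4 in the phd3 null arrays and 295.5 to 667.9 in the wild-type arrays, highest in replicate 3 of both genotypes. Of these markers Cd3d, Cd3g, Cd4 and Cd247 were highest in replicate 3 of both genotypes. Cd5 was highest in sample 1 of both. Within their genotype, Cd3e and Cd8a were highest in phd3 null sample 3 and in wild-type sample 2. Themis was highest in phd3 null sample 2 and in wild-type sample 3. Ada was likewise highest in replicate 3 of both. The median signal of these arrays was also higher, at 64.2 in phd3 null and 60.3 in wild type, against 49.4 to 52.1 in the others. The part of T cells or of the array median in the Ada values was not tested.

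Over the members as a whole, 3 genes were tested at gene level and 0 were called by limma without a block, where 0 of 10960 genes (0%) were called and 191 had an unadjusted p under 0.05. In the fit over every probe set 0 of the 9 member probe sets were called, where 0 of 45037 (0%) were called and 1382 had an unadjusted p under 0.05. None of the 9 had an unadjusted p under 0.05, their values running from 0.365 to 0.904. With the replicate block 0 members were called in either fit, where limma called 2 genes (0.0182%) and 6 probe sets (0.0133%). Egln3, the targeted gene, was itself not called without the block. Its brighter probe set differed by -3.85 (SE 0.55), with an adjusted p of 0.181 in limma over all probe sets. With the block its adjusted p was 3.08e-05 in limma. The absence of a call without the block therefore does not show the absence of a difference. The genotypes overlapped in all 9 probe sets, where 8.53% of all probe sets and 6.92% of tested genes had groups that did not overlap. Of the 9, 4 were higher and 5 lower in phd3 null, with a median absolute log2 fold change of 0.27 against 0.34 over all probe sets. All 3 pairs went the same way in 0 of the 9 member probe sets, where 25.6% of all probe sets did so.

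**Figure D3:**
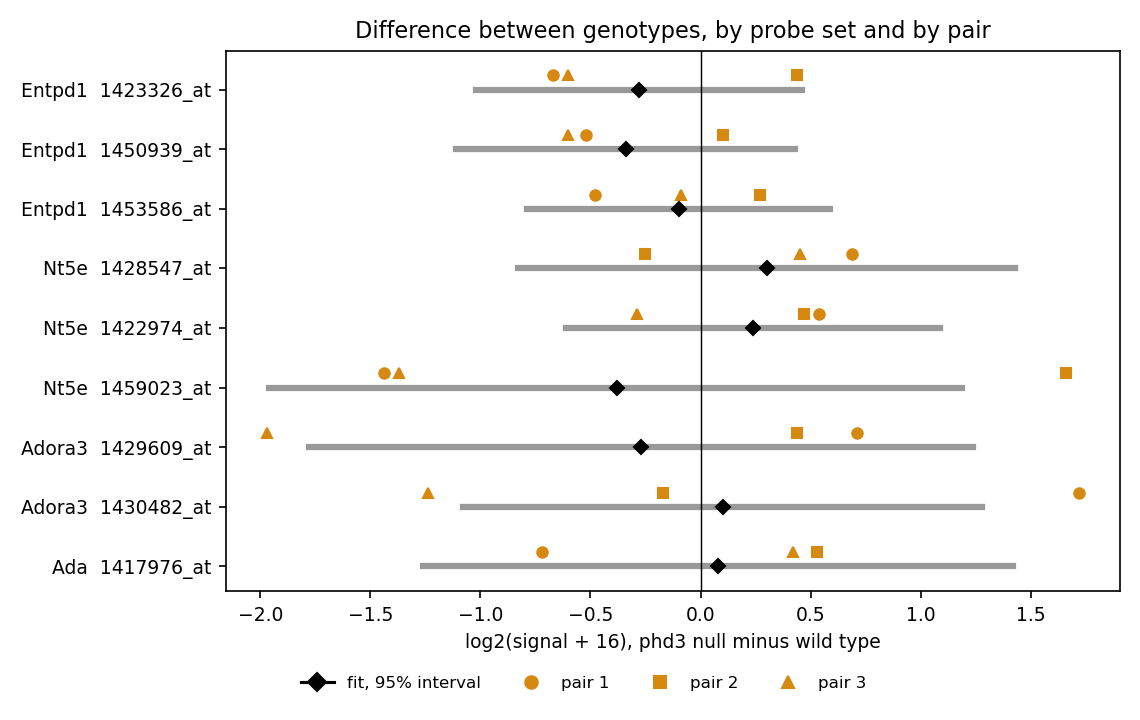
Difference in log2(signal + 16), phd3 null minus wild type (horizontal axis), for the 9 member probe sets. Diamonds and grey bars are the limma fit over all probe sets and its 95% interval, and orange markers are the 3 pairs of same-numbered samples. Every interval spans 0, and in no probe set do the 3 pairs lie on 1 side of 0.

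The genes that surround these members in the pathway gave no call either. In 4 lists, 0 of 63 tested genes passed in limma over all genes, with or without the block, against 0% and 0.0182% of all genes. The list medians were -0.12, -0.28, -0.16 and -0.14, and the median of all tested genes was -0.01. Genes whose groups did not overlap were 5 of the 63, or 7.94%, against 6.92% of all tested genes. These 5 were Entpd3 and Pde4d, lower in phd3 null, and Entpd5, Prkar1b and Pde8a, higher.

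Among ATP and UDP receptors and release genes, 11 of 16 were tested, with 5 higher and 6 lower in phd3 null. P2ry14, the UDP-glucose receptor gene, differed by -0.63 (SE 0.64) and P2rx4, an ATP-gated channel gene, by -0.34 (SE 0.37). The other P2rx4 probe sets gave 0.86, -0.57 and 0.15. P2ry6, a UDP receptor gene, differed by 0.41 (SE 0.55). Slc17a9, the vesicular nucleotide transporter gene that loads ATP for release, differed by 0.26 (SE 0.38), with 0.31, 0.19 and 0.28 in pairs 1 to 3. Its dimmer probe set gave 0.49, with 0.77, 0.85 and -0.15 in pairs 1 to 3. None of these 4, the tested genes of smallest p in the list, passed.

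Of 15 other nucleotide-cleaving enzyme genes 9 were tested, with 4 higher and 5 lower. Entpd3, a surface relative of CD39, gave 16.3, 75.8 and 2.9 in phd3 null samples 1 to 3, against 96.7, 104.5 and 156 in wild-type samples 1 to 3. Every phd3 null array was below every wild-type array, and the pairs differed by -1.80, -0.39 and -3.19. Its log2 fold change of -1.79 (SE 0.62) did not pass in limma (unadjusted p = 0.0173, adjusted p = 0.9996). Relatives found mainly inside the cell had positive differences in their brightest probe sets, without passing: Entpd6 by 0.92 (SE 0.55), Entpd7 by 0.56 (SE 0.37) and Entpd5 by 0.37 (SE 0.30). For Entpd7 the other probe sets gave -0.39, -1.18, -0.55 and 0.05, whereas the 5 other probe sets of Entpd5 ran from 0.02 to 0.48.

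Transport and metabolism of adenosine had 15 of 24 genes tested, with 6 higher and 9 lower. Slc29a1, the equilibrative transporter that carries adenosine into cells, differed by -0.36 (SE 0.49), and Dpp4, a surface peptidase that binds adenosine deaminase in humans, by 0.49 (SE 0.66) in its brightest and by -0.81 in its next probe set. Xdh, the xanthine oxidoreductase gene at the end of purine breakdown, differed by 0.37 (SE 0.34). Nt5c3, a cytosolic nucleotidase gene, differed by -0.29 (SE 0.36).

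Cyclic AMP signalling, the route of the adenosine receptors inside the cell, had 28 of 33 genes tested, with 10 higher and 18 lower. Prkar1b, a regulatory subunit gene of protein kinase A, gave 104.5, 127.6 and 132.5 in phd3 null samples 1 to 3, against 40.6, 18.7 and 50.2 in wild-type samples 1 to 3. All phd3 null arrays were higher, with pair differences of 1.09, 2.05 and 1.17. The log2 fold change of 1.43 (SE 0.42) did not pass in limma (unadjusted p = 0.00720, adjusted p = 0.9996), and its 4 other probe sets ran from -0.01 to 0.59. Pde4d, a phosphodiesterase gene that ends cyclic AMP signals, gave 56.5, 70.7 and 57.4 in phd3 null, against 92, 91.1 and 164.1 in the wild-type arrays. Its groups did not overlap in this probe set, and its log2 fold change was -0.72 (SE 0.37, adjusted p = 0.9996 in limma). The dimmer Pde4d probe set gave -1.23 (SE 0.66), with groups that overlapped. Pde8a, another phosphodiesterase gene, differed by 0.42 (SE 0.30) and by -1.22 in its dimmer probe set, and the adenylyl cyclase gene Adcy5 by -0.72 (SE 0.59) in its brightest probe set and by -0.12, 0.37 and -0.07 in the others.

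**Figure D4:**
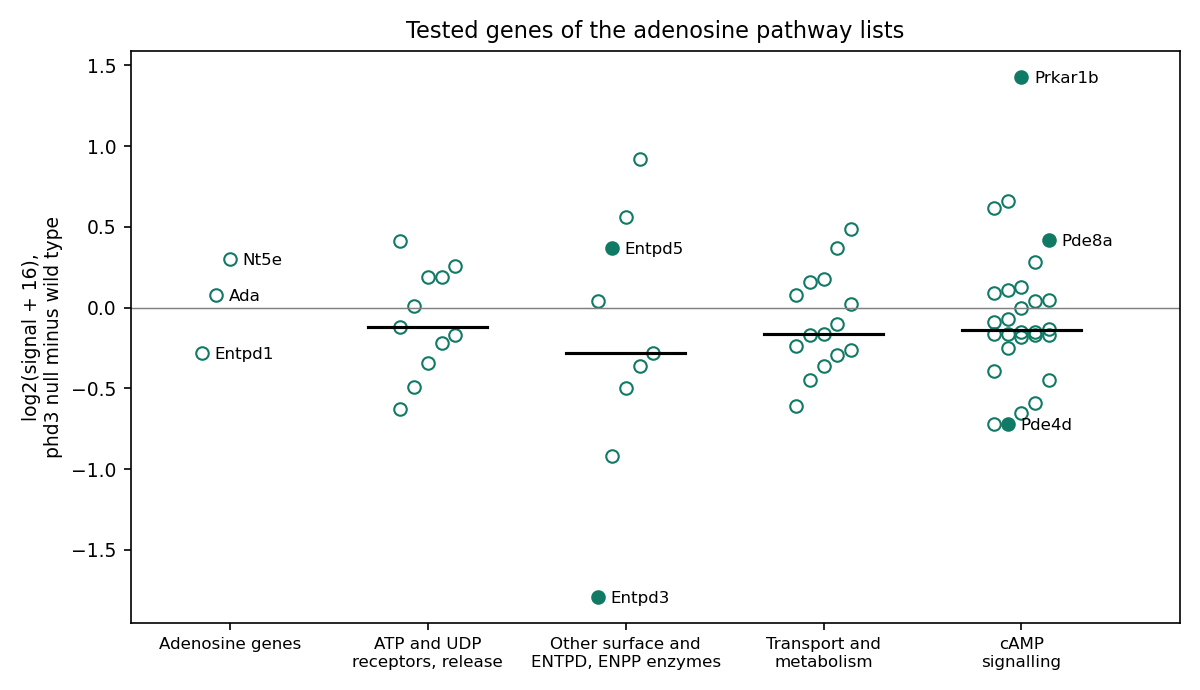
Difference in log2(signal + 16), phd3 null minus wild type (vertical axis), for each tested gene of the adenosine members and of 4 pathway lists, by the brightest probe set. Filled points are genes whose phd3 null and wild-type arrays do not overlap, and black bars are list medians, drawn for the 4 lists. Entpd3 at -1.79 and Prkar1b at 1.43 lie farthest from 0, and neither passed the test over all genes.

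Genes with the array profile closest to each tested member were found by the mean absolute difference between profiles of log2(signal + 16), each centred on its own mean over the 6 arrays. For Entpd1, whose values spanned 1.15 log2 units, these were Ctsd, the cathepsin D gene, Rab7, a late endosome GTPase gene, and Gpr137b-ps, at mean differences of 0.09, 0.09 and 0.10. Ctsd was at 2182.5, 2135.9 and 1430.4 in the phd3 null arrays and at 3088.1, 1883.1 and 2255.2 in the wild-type arrays, with the same high array as Entpd1, wild-type sample 1. For Nt5e, which spanned 2.55 units, they were Abhd17c, Apoc2 and Stk32b, at 0.14, 0.15 and 0.16. Apoc2, an apolipoprotein gene, was at 609.1, 315.2 and 160.5 in the phd3 null arrays and at 378.9, 296.2 and 87.1 in the wild-type arrays, also lowest in replicate 3 of both genotypes. For Ada, which spanned 1.41 units, they were Foxj3, Mrpl58 and Abhd15, at 0.03, 0.07 and 0.09. With 6 arrays and 10960 genes, such likeness is a description of these arrays.

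The arrays also differed in other blood cells, which could carry these transcripts. The 7 B cell markers summed to 325.6, 549.5 and 3390.1 in phd3 null samples 1 to 3 and to 368.4, 638.7 and 2691.5 in wild-type samples 1 to 3, high in replicate 3 of both genotypes. The 7 NK cell markers summed to 705.4 to 2974.3 in the phd3 null arrays and 1442.7 to 6801.7 in the wild-type arrays, with all 7 lower in phd3 null by the fit and 0 called. The 10 neutrophil markers summed to 25868.6 to 51201.6 in the phd3 null arrays and 43075.4 to 57063.5 in the wild-type arrays, lowest in replicate 3 of both genotypes. The 5 platelet markers summed to 348.9 to 551.9 in phd3 null and 329.5 to 376.5 in wild-type samples. No marker of any list was at 0 on any array, but without detection calls this does not show that those cells were present. Whether these cells contributed to the signals of Entpd1, Nt5e, Adora3 or Ada was not tested.

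**Figure D5:**
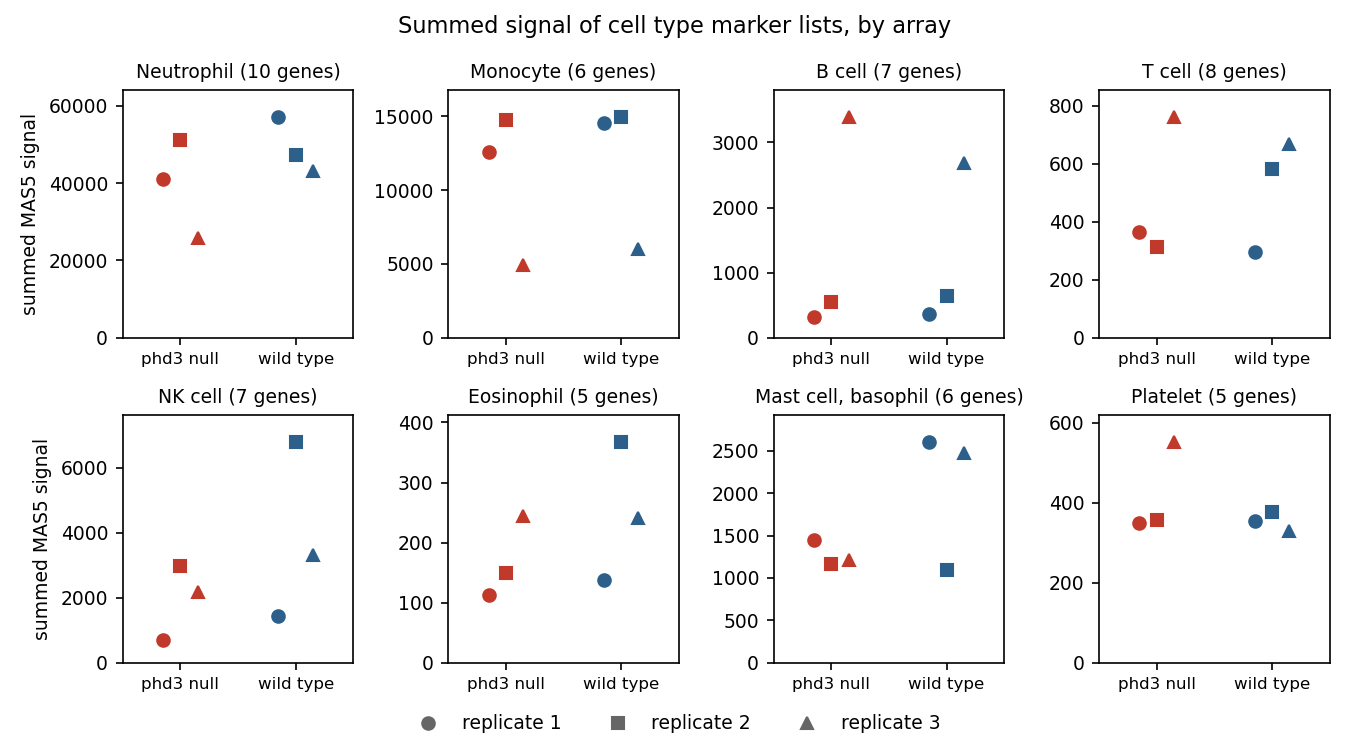
Summed MAS5 signal (vertical axes, linear from 0) of 8 lists of cell type markers in 3 phd3 null arrays (red, left) and 3 wild-type arrays (blue, right), with marker shape giving the replicate. The B cell and T cell sums are highest and the monocyte and neutrophil sums lowest in replicate 3 of both genotypes, though single markers can differ from their sum.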

How the data were processed

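The deposited values are signal intensities on a linear scale, made with MAS5 per the submitters' processing notes, version not given in the sources used here; the authors' arrays had a mean without the outer 2% of probe sets at each end that was close to 100 on each. Detection calls were not used. The 64 control probe sets were left out. Probe sets were named from the platform annotation (34945 with 1 symbol, 932 with several, 9160 unnamed here). A gene took its probe set of highest mean, and a minimum mean log2(signal + 16) of 5.90, the median over non-control probe sets, left 10960 of 18193 genes for testing. The genotype contrast was fitted to log2(signal + 16) by limma 3.58.1 under R 4.3.3 (eBayes with trend, two-sided, Benjamini-Hochberg over all genes, called at an adjusted p under 0.05), and likewise over all 45037 probe sets without a filter. Folds are phd3 null minus wild type and understate changes of dim genes. The code was tested on simulated data. Precision is limited by the number of arrays: 3 against 3 arrays cannot give an exact two-sided permutation p under 0.10.

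Same-numbered samples share a code in the source labels, and their deviations from the group means correlated at 0.292, 0.151 and 0.474 for numbers 1 to 3. Differently numbered samples gave -0.363 to 0.177, and the highest of these, phd3 null sample 2 with wild-type sample 1, was above the 0.151 of number 2. The numbers were taken as pairs by the shared code. Every same-numbered correlation was above 0.1, but so was the 0.177 of differently numbered samples, so the correlations alone do not establish the pairs. The block was an alternative. Members and lists were chosen with earlier results of these data known. Named genes are all members, the 4 tested genes of smallest p in each pathway list, any list gene called, and the 3 tested genes nearest in profile to each tested member. Csf1r, the neutrophil, eosinophil, mast cell and basophil genes, Xist and the hypoxia-induced genes were named after their values were seen. Promoter windows come from a table made from RefSeq, in which 5 of the 6 members matched by symbol.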

Additional observations from a re-analysis of the deposited data

How the results depend on the processing

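No setting called a member: 0 in each of 21 alternatives. The log2 fold change of Entpd1 stayed below 0 in all 20 settings (-0.54 to -0.01 when 1 array was left out). That of Nt5e ran from -0.27 to 0.77 when 1 array was left out, turning to -0.27 when this was phd3 null sample 1 and -0.25 when it was wild-type sample 3, and from 0.05 to 0.33 in the other settings. Adora3 ran from -0.74 to 0.27 when 1 array was left out (0.04 if phd3 null sample 3 was left out, 0.27 if wild-type sample 3 was), and turned to 0.58 without pair 3, with or without the replicate block. Ada ran from -0.01 to 0.50 in the 3 such settings that still tested it, the lowest without wild-type sample 2. It fell under the minimum and has no value in 8 alternatives.

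Calls over all features moved from 0 as follows. With the replicate block 2 genes and 6 probe sets were called, with the block and quantile normalization 1 and 5, with the block and a pseudocount of 1, 2 and 5, and with the block and a pseudocount of 64, 4 and 4. Without pair 3 there were 1 and 5, and with the block as well 44 and 102. Among the 44 was 1 pathway gene, Prkar2b, a protein kinase A subunit gene (-1.09, SE 0.29, adjusted p = 0.0400 in limma), chosen here after its value was seen. That fit rests on 4 arrays. Over all 6 arrays Prkar2b differed by -0.65 (SE 0.82 in the fit over every probe set) and was not called with or without the block. Its differences in pairs 1 to 3 were -1.19, -0.99 and 0.23, so the pair left out went the opposite way. Array quality weights gave 1 probe set. Leaving out 1 array gave 0 to 1 genes and 0 to 6 probe sets. The causes were not tested.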
